A study of Mus musculus with 2 samples.

Results

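The genes described here encode the machinery with which a cell makes secreted and membrane proteins in the endoplasmic reticulum (ER), together with the sensors and effectors of the unfolded protein response. They were listed by function, as ER chaperones, translocon and signal peptidase subunits and stress regulators, and not by their values on these arrays. Of 43 listed genes, 41 had at least 1 probe set that named the gene alone, out of 12393 genes on the array. Sec61g, a translocon subunit, and Srp54a, the signal peptide binding protein, were matched only by probe sets that also name other genes, and they were not read. Expression was measured in mammary tumors of female wild-type FVB mice. Both groups were given 15 mg medroxyprogesterone acetate, a long-acting progestin, under the skin at 5 weeks of age, and then 4 weekly doses of 1 mg DMBA, a carcinogen, by gavage. From the day after the last dose, control mice stayed on standard chow, whereas the other mice were fed chow with 0.1% GW9662, an irreversible inhibitor of PPARγ. RNA of 5 mice was pooled for each diet and hybridized to 1 Affymetrix array, so there were 2 arrays, no replicates and no test between the diets, and differences between mice, tumors and arrays cannot be told apart.

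The ER receives nearly every protein that a cell secretes. A signal recognition particle (SRP) brings the ribosome to the Sec61 channel, signal peptidase cuts the signal peptide, and chaperones and disulfide isomerases fold the chain. When folding falls behind, the sensors IRE1 (Ern1), PERK (Eif2ak3) and ATF6 raise chaperone transcription, in part through the spliced form of Xbp1 mRNA, and PERK slows translation while favoring ATF4. The lactating mammary gland relies on this machinery to secrete caseins. The comparison asks whether the capacity for secretion differed between tumors of the 2 diets, with the casein genes as context.

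The secretory machinery was nearly level between the arrays, and Xbp1, Herpud1 and Asns were lower on the GW9662 array. Signals are given below for the control array first and the GW9662 array second. A gene was read at its brightest probe set by the mean of both arrays, called its main probe set, and 39 genes had a mean signal of at least 100. Of these, 13 were lower and 26 higher on the GW9662 array, while 47.1% of the 8009 genes over the same minimum were lower. With ratios centred on the median of all genes, 18 were lower and 21 higher. The median log2 ratio of GW9662 over control was 0.03 for the secretory and stress genes and 0.03 for all genes. The quartiles of these genes were log2 ratios of -0.18 and 0.20, and those of all genes were -0.25 and 0.28. A signal of 300 or more on at least 1 array was reached by 38 of the genes. In this group 3 were at least 1.5-fold lower, which is 7.89%, beside 9.8% of all 6053 genes with such a signal. No gene was at least 1.5-fold higher (6.41% of all genes), 2-fold lower (4.68%), 2-fold higher (1.02%), 3-fold lower (2.68%) or 3-fold higher (0.215%). The share at least 1.5-fold lower was thus close to that of the whole array. As the only measure of error within these data, log2 ratios of probe sets that name a common gene had an SD of 0.36 over 2639 genes, and 0.33 within the genes described here. This spread holds no variation between mice or tumors.

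**Figure D1:**
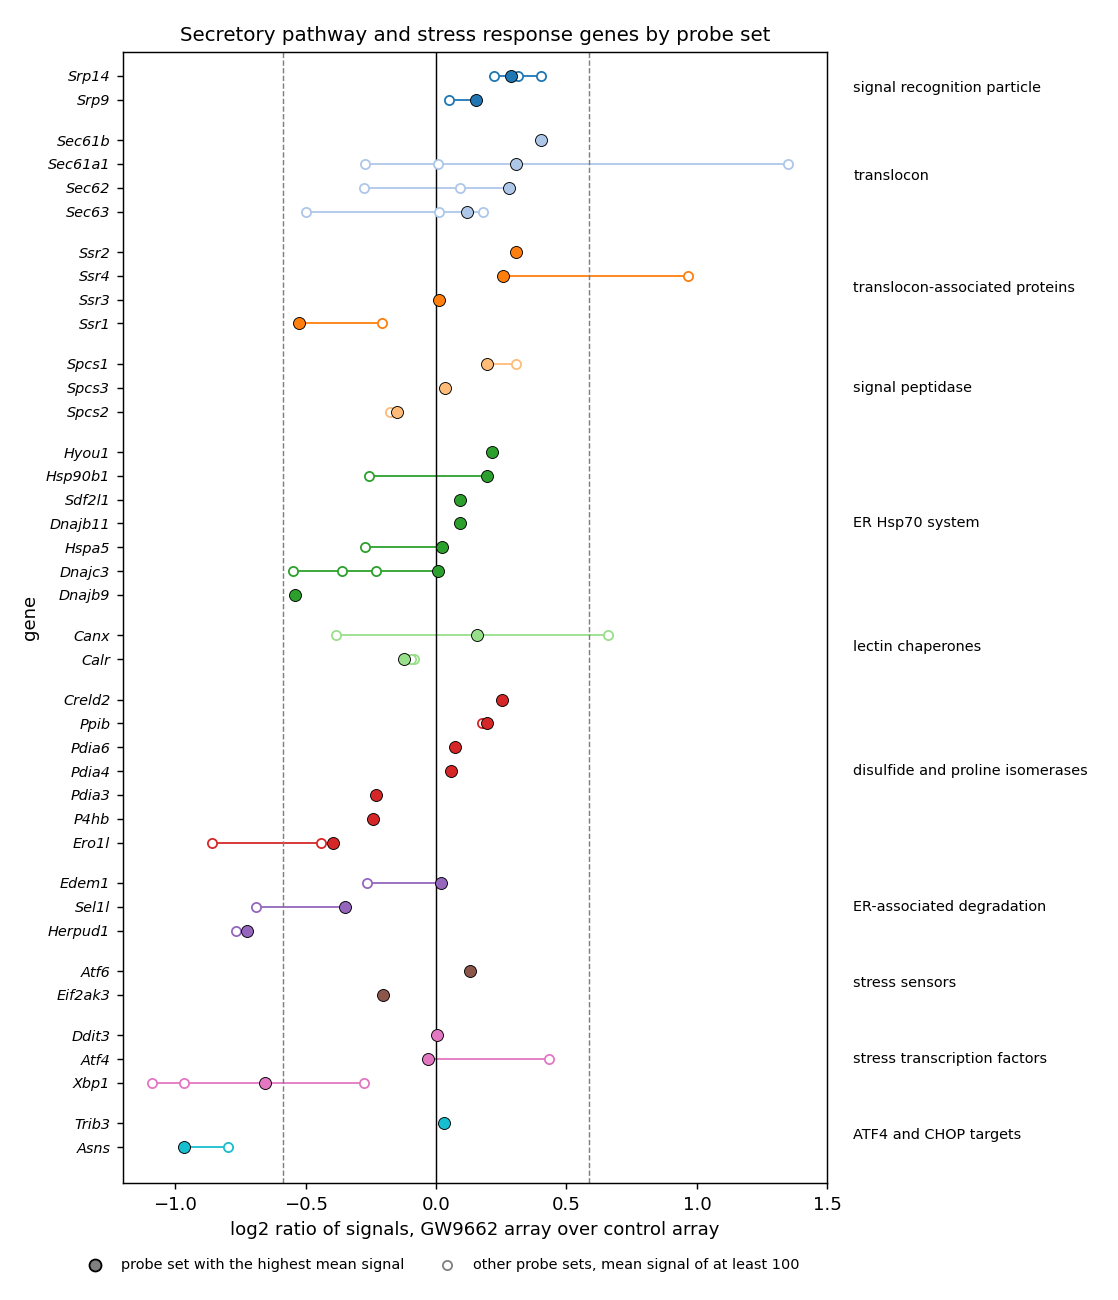
Log2 ratio of the GW9662 signal over the control signal on the x axis for the 39 genes read, grouped by role on the y axis. Filled points are the main probe set and open points the other probe sets of the gene with a mean signal of at least 100, the lines join the probe sets of a gene, and the dashed lines mark 1.5-fold. Only the filled points of Herpud1, Xbp1 and Asns lie beyond a dashed line.

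The SRP subunits Srp14 and Srp9 had slightly higher signals on the GW9662 array. Srp14, which with Srp9 holds back the ribosome during targeting, had signals of 4429.6 and 5403, 1.22-fold higher. Srp9 had signals of 2464 and 2740.4, 1.11-fold higher. Both were higher at every probe set, by log2 ratios of 0.05 to 0.40. Of these ratios, only that of 1 Srp14 probe set (0.40) exceeded the SD of 0.36 between probe sets of a gene. Other genes of the particle and its receptor went in both directions. Srp19 was higher (1548 and 2187). Srp68 (1086 and 928) and the receptor subunits Srprb (662 and 556) and Srpr (983 and 919) were lower.

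The subunits of the Sec61 channel and its partners were all higher at their main probe sets. Sec61b, the small beta subunit, had signals of 4272 and 5653, 1.32-fold higher, the highest ratio among the genes described here. The channel-forming subunit Sec61a1 had signals of 2798 and 3464, 1.24-fold higher. Its other probe sets did not all share this direction. At the second by signal it was lower (1347 and 1114), at the third it was level (937 and 943), and a dim probe set was higher (56.5 and 144). Sec62, which assists post-translational import, was 1.21-fold higher (1939.5 and 2352) at its main probe set and 1.21-fold lower (2131 and 1762) at another. Sec63, the J-domain protein that recruits the ER Hsp70 to the channel, had signals of 629 and 683, and a dimmer probe set was lower (189 and 134). These 4 genes had a median log2 ratio of 0.29, but only Sec61b, with 1 probe set, had no probe set that was lower.

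The translocon-associated protein complex helps some signal peptides to open the channel, and its subunits did not move together. Ssr1, the alpha subunit, was lower on the GW9662 array (2572 and 1785, 1.44-fold lower), and its second probe set was lower as well (628 and 545), while the dimmest had a mean signal under 100 (67.1 and 80.4). Ssr2 was 1.24-fold higher (1775 and 2194) and Ssr4 was 1.19-fold higher (3686 and 4405). A dim Ssr4 probe set showed a larger difference (149.6 and 292). Ssr3 was level, with signals of 3104 and 3128. The signal peptidase subunits Spcs1 (5358 and 6142), Spcs2 (2705 and 2440.1) and Spcs3 (968 and 991) differed by at most 1.15-fold at their main probe sets. Spcs1 was higher and Spcs2 lower at each of their probe sets with a mean signal of at least 100.

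Of the ER Hsp70 system, Dnajb9 was lower and the other genes differed by at most 1.16-fold at their main probe sets. Hspa5, which encodes BiP, the central ER chaperone and the usual marker of ER stress, had signals of 6933 and 7035, and a dimmer probe set was 1.21-fold lower (4782 and 3962). Hsp90b1, which encodes the ER Hsp90 GRP94, had signals of 5368 and 6154 at its main probe set and 1764 and 1477 at the other, in opposite directions. The nucleotide exchange factor Hyou1 had signals of 423 and 491. Sdf2l1, a partner of the J-domain proteins, had 956 and 1018. Among these J-domain proteins, Dnajb11 was level (684 and 729) and Dnajc3 was level at its main probe set (1686 and 1693). The next Dnajc3 probe set was 1.46-fold lower (1282 and 877), and its dimmer probe sets were lower by smaller ratios. Dnajb9, a J-domain protein that restrains IRE1, was 1.45-fold lower (1494 and 1028) at its single probe set.

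The folding lectins and the disulfide isomerases differed little. Calr, the soluble lectin calreticulin, was 1.09-fold lower (5859 and 5376), with ratios from -0.12 to -0.09 on the log2 scale over 3 probe sets. Its membrane-bound relative Canx had signals of 4242 and 4729.8, and its dimmer probe sets lay on either side of equality (956 and 733, and 210.2 and 332). P4hb, the classical protein disulfide isomerase, was 1.18-fold lower (4573 and 3865). Pdia3, the isomerase that works with both lectins, was 1.17-fold lower (4192 and 3571). Pdia4 (1299 and 1352) and Pdia6 (1848 and 1943) were level. Ppib, the proline isomerase cyclophilin B, was 1.15-fold higher (6245 and 7151) and 1.13-fold higher (5710.3 and 6453) at its probe sets. Creld2, an ER stress-induced protein, was 1.19-fold higher (819.6 and 977). Ero1l, now named Ero1a, the oxidase that recharges the isomerases and is also induced by hypoxia, was lower at all 3 probe sets, with signals of 1158 and 881, 758 and 558, and 295 and 163.

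Several chaperone genes share a promoter element that serves the unfolded protein response. The ER stress element, CCAAT followed after 9 bases by CCACG, was searched on both strands of RefSeq promoter windows of 300 bases, 250 before and 50 after the gene start (GRCm38.p6). It was found for 7 of the 38 listed genes with a window, and for 0.137% of all 27025 genes with one. The list was made by function and includes chaperones and effectors of this response, so the sharing describes the list. The stretches follow from 5′ to 3′ on the gene's strand, with both ends of the element in capitals and 12 bases on either side. On the opposite strand the element reads CGTGG, 9 bases and ATTGG, as in Calr, Creld2 and the second site of Hsp90b1.
Hspa5, chr2:34772013-34772055 (+ strand): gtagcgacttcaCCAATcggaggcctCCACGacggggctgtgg
Hsp90b1, chr10:86705626-86705668 (- strand): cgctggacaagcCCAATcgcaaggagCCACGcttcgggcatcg
Hsp90b1, chr10:86705521-86705563 (- strand): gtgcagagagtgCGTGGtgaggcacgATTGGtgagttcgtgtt
Calr, chr8:84847063-84847105 (- strand): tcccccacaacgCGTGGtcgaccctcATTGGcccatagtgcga
Canx, chr11:50325788-50325830 (- strand): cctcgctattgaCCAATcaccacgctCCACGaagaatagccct
Pdia6, chr12:17266479-17266521 (+ strand): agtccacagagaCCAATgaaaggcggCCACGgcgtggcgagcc
Dnajc3, chr14:118937815-118937857 (+ strand): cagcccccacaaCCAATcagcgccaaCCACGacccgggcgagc
Creld2, chr15:88819508-88819550 (+ strand): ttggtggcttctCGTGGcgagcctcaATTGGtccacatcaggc
The first base of the element lay 65 bases before the gene start in Hspa5 and between 98 and 212 bases before it in the others. All 7 genes were close to level at their main probe sets, with log2 ratios between -0.12 and 0.25 and a median of 0.07. The median was 0.01 for the 25 genes read whose window held neither this element nor the shorter form. Hspa5, Hsp90b1, Canx and Dnajc3 had probe sets on both sides of equality, so the small difference between these medians has no settled direction.

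The shorter form, ER stress element II, is ATTGG followed after 1 base by CCACG. It was found for Herpud1 and Dnajb11 and for 0.0444% of all genes with a window. In Herpud1 it began 52 bases before the gene start, and in Dnajb11 it began 7 bases after it. The Herpud1 stretch is shown because Herpud1 was the gene with either element whose signal differed most.
Herpud1, chr8:94386365-94386399 (+ strand): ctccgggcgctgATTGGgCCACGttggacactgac
Dnajb11 was level and Herpud1 was lower. The UPR element (TGACGTGG) and the amino acid response element (TGATG, then AAT after 1 base) were in none of the 38 windows, beside 0.714% and 1.08% of all genes, which says only that these letters are not in these windows.

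Genes of ER-associated degradation, which returns misfolded proteins to the cytosol, included some of the largest differences. Herpud1, a ubiquitin-like membrane protein of the degradation complex and a sensitive target of the unfolded protein response, was 1.65-fold lower (1119 and 677) at its main probe set and 1.70-fold lower (480.3 and 282) at the other. Of all genes that reached a signal of 300 on either array, 7.22% had a ratio at least as low. Sel1l, the scaffold of the same complex, was 1.27-fold lower (318 and 249) at its main probe set and 1.61-fold lower (279.8 and 174) at the other. Edem1, a mannosidase-like protein that hands glycoproteins to this route, was level (518 and 525) at its main probe set and lower at the other (555 and 462). Thus 2 of the 3 genes were lower at every probe set with a mean signal of at least 100.

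The stress sensors showed no common shift. Eif2ak3 (PERK) was 1.15-fold lower (516 and 448) and Atf6 was 1.09-fold higher (297 and 325). Ern1 (IRE1) had signals of 15.0 and 15.1, in the range of the probe sets for olfactory receptors, genes of the nose, whose highest signal was 25.8, so no direction was read for it.

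Xbp1, the transcription factor downstream of IRE1, which is also abundant in luminal mammary cells and needed for secretory differentiation, was lower at all 4 of its probe sets. The signals were 7284 and 4619 at the first, 1.58-fold lower. They were 5531 and 2599 at the second (2.13-fold lower), 2269 and 1162 at the third (1.95-fold lower) and 153 and 126 at the dimmest (1.21-fold lower). The dimmest, under 1.5-fold, is the only one whose name carries no suffix letter for matches to several transcripts. The control signal exceeded the GW9662 signal each time, and the ratio varied between probe sets by 0.81 on the log2 scale. At the main probe set 8.36% of genes with a signal of at least 300 had a ratio at least as low. The spliced and unspliced forms of the mRNA were not analysed here. Atf4, the main effector of PERK, had signals of 1883 and 1846, while a second probe set was 1.35-fold higher (925 and 1247). Ddit3, which encodes CHOP, the death-promoting factor of prolonged stress, was the same on both arrays (363 and 364).

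Among genes controlled by ATF4 and CHOP, Asns differed most. Asns, the asparagine synthetase, was 1.96-fold lower (821 and 420.0) at its main probe set and 1.74-fold lower (727 and 419) at the other, and 4.92% of genes with a signal of at least 300 had a ratio at least as low. Trib3, a pseudokinase induced by CHOP, was near the minimum signal, with 101 and 103 at its main probe set and 95.2 and 80.6 at the other, so its direction is not settled. Chac1, a glutathione-degrading enzyme of the same branch, had 83.1 and 65.8, below the minimum mean signal of 100. Both Ddit3 and Atf4 were level at their main probe sets.

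**Figure D2:**
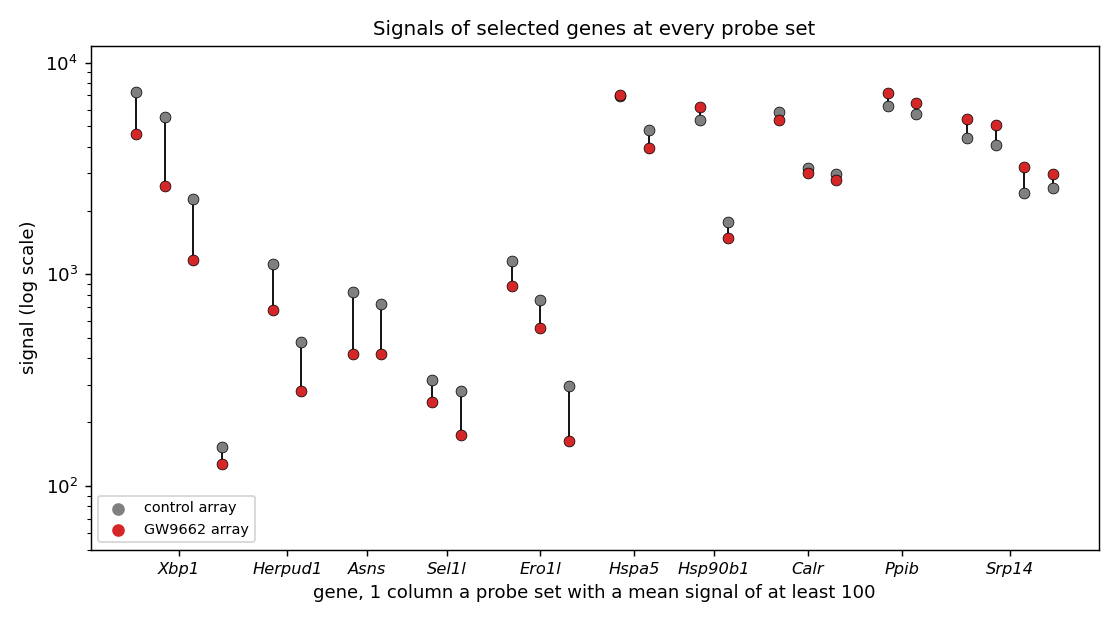
Signals on a log scale (y axis) of 10 selected genes at each probe set with a mean signal of at least 100, 1 column a probe set, with the control array in gray and the GW9662 array in red. Every probe set of Xbp1, Herpud1, Asns, Sel1l and Ero1l lay lower in the GW9662 pool, whereas those of Ppib and Srp14 lay higher.

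Probe sets of the same gene were compared for direction. They read the same pooled RNA on the same 2 arrays, so their agreement holds no variation between mice or tumors. Of the 22 genes with at least 2 probe sets over a mean signal of 100, 8 were lower at all of them (Asns, Calr, Ero1l, Herpud1, Sel1l, Spcs2, Ssr1 and Xbp1). Higher at all were 5 (Ppib, Spcs1, Srp9, Srp14 and Ssr4), and 9 lay on both sides. The latter included Hspa5, Hsp90b1, Canx and Sec61a1, for which a small shift at the main probe set has no settled direction. Over 75 such probe sets the median log2 ratio was 0.01 and 35 were lower. Of 67 probe sets that reached a signal of 300 on at least 1 array, 7 (10.4%) were at least 1.5-fold lower, beside 10.9% of all such probe sets with 1 gene, and 1 (1.49%) was at least 1.5-fold higher, beside 6.55%. The 7 belong to Xbp1 (3), Herpud1 (2) and Asns (2), and the 1 is the dimmest Canx probe set. How often all probe sets of a gene share a direction was not counted over the whole array. The counts of 8, 5 and 9 genes therefore do not set the listed genes apart.

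Other genes of the secretory pathway were also close to level. Their lists were written from general knowledge, but with earlier results of these data known. Of 23 further ER folding factors read, 10 were lower and 13 higher, and none differed by 1.5-fold (median log2 ratio 0.06). Manf, a secreted ER stress-induced factor, was the highest (2632 and 3729, 1.42-fold higher), followed by the thioredoxin-like Tmx1 (1534 and 2140.2), whereas the disulfide isomerase Txndc5 was lower (1699 and 1312) and the selenoprotein Selenof was level (3727 and 3564). Of 13 further genes of targeting and translocation, 6 were lower and 7 higher (median 0.03), among them the SRP protein Srp19 (1548 and 2187), the signal peptidase catalytic subunit Sec11a (2974 and 3684) and the cochaperone Sgta (909 and 635). The 16 genes of N-glycosylation, chiefly subunits of the oligosaccharyltransferase, were mostly higher (12 of 16, median 0.12), with none past 1.5-fold with a signal of at least 300. Within that complex the small subunits Krtcap2 (2928 and 3890.4), Dad1 (2887 and 3654) and Ost4 (3619 and 4265) were higher, Rpn1 was level (4132 and 4412) and Ddost was lower (2229 and 1732).

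Genes of protein export from the ER and further genes of degradation had medians close to 0. Of 41 genes of transport between ER and Golgi, 23 were lower and 18 higher, and none differed by 1.5-fold (median -0.03). Preb, the exchange factor that starts COPII coat assembly, was the highest (974 and 1460.2), whereas the small GTPase Rab1b (650.3 and 484) and the retrieval receptor Kdelr3 (498 and 374) were lower. Arf1 (7840.1 and 7443) and the cargo receptor Tmed3 (4727 and 5268) differed little. Of 23 further degradation genes, 15 were lower and 8 higher (median -0.08). Among the 8009 genes of the array with a mean signal of at least 100, 47.1% were lower. The only further degradation gene past 1.5-fold was Nploc4, a cofactor of the extracting ATPase, at 1.52-fold lower (347 and 229). H13, the signal peptide peptidase, had signals of 1295 and 934, the glycanase Ngly1 had 982 and 725, the ATPase Vcp itself had 3937 and 3399.9 and Selenok, a membrane selenoprotein, had 2285 and 2738.

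Genes of the wider stress response went in both directions. Of 35 read, 21 were lower and 14 higher, with a median log2 ratio of -0.13. Atf5, a transcription factor translated under stress, was 1.54-fold lower (763 and 494). Slc7a5, the large neutral amino acid transporter and an ATF4 target like Asns, was 1.83-fold higher (1034 and 1890.3), and Bcl2l11, the death protein Bim, was 1.51-fold higher (614 and 926). These 3 were the ones past 1.5-fold with a signal of at least 300. Ddit4, an inhibitor of mTORC1, had 3562 and 3169 and Cebpb, a partner of CHOP, had 4721 and 4054. The amino acid genes Asns and Slc7a5 thus stood on opposite sides.

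The milk protein genes, the main cargo of this pathway in the secreting gland, were far lower on the GW9662 array. Csn1s1, alpha-S1-casein, had signals of 9944 and 609, 16.3-fold lower. Csn2, beta-casein, had 10570.2 and 1524, 6.94-fold lower. The whey proteins Wap (750.0 and 26.6, at least 7.5-fold lower) and Lalba (329.6 and 16.5, at least 3.3-fold lower) were at a GW9662 signal near that of olfactory receptor probe sets, so their folds are bounds with a floor of 100. Csn3, kappa-casein, was the exception at 1.24-fold lower (8575 and 6908). All 8 milk protein genes read were lower and 7 passed 3-fold. Their median log2 ratio was -3.62, while the median of the secretory and stress genes was 0.03. None of the latter was as low as the median milk protein gene.

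**Figure D3:**
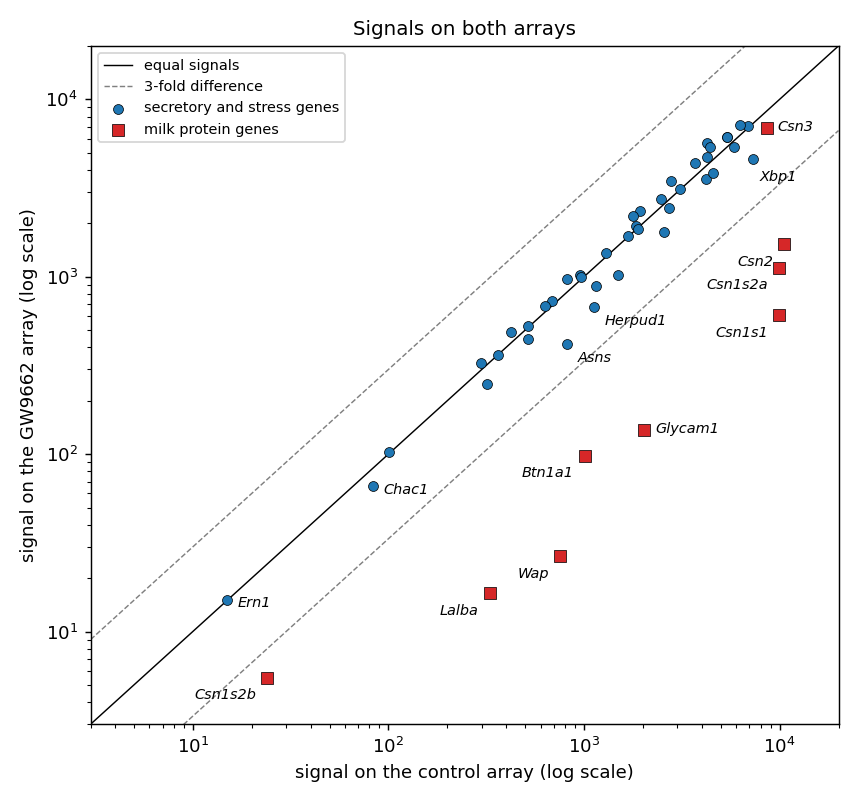
Signals on the control array (x axis) and on the GW9662 array (y axis), both on log scales, for the 41 secretory and stress genes in blue and 9 milk protein genes in red, each at its main probe set. The blue points follow the line of equal signals and none lies beyond a dashed 3-fold line, whereas all milk protein genes but Csn3 lie below the lower dashed line.

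Markers of fat and muscle differed between the pools by far more than the secretory genes. In bulk tissue, fewer cells of a type and less RNA per cell cannot be told apart. Mammary epithelial markers were present on both arrays and differed little as a list, with 10 of 15 higher, a median log2 ratio of 0.15 and summed signals of 58828 and 62000.0. Krt8 had 9496 and 9665 and Krt18 had 10018 and 9025, whereas the basal keratins Krt5 (1256 and 793) and Krt14 (1022 and 619.5) were lower. All 11 adipocyte markers read were lower (median -4.48, summed 61228 and 7299), as were all 12 skeletal muscle markers (median -3.17, summed 13076 and 1486) and all 8 endothelial markers (median -0.78, summed 4707 and 2647). Fibroblast markers were lower in 10 of 13 (median -0.35, summed 49522 and 37812), and macrophage markers in 6 of 11 (median -0.07, summed 30066 and 27742). Among these, the fatty acid carrier Fabp4 had 13670.0 and 3097 and the muscle actin Acta1 had 2488 and 285. No marker was listed at 0. Plasma cells carry much Xbp1. Of their marker list and that of B cells, only 5 of 10 genes were read, 2 lower and 3 higher, with a median log2 ratio of 0.17 and summed signals of 4411 and 4303. Jchain, which joins secreted antibodies, was at least 6.88-fold lower (688 and 99.8), while Ighm (235 and 221) differed little, as did Sdc1 (3139 and 3539), which epithelium also expresses. Sdc1 made up most of both sums, so the sums say little about plasma and B cells. Pou2af1 (128 and 208) and Prdm1 (101 and 114), transcription regulators of these cells, were higher. Of the B cell receptor genes, Cd79a (7.8 and 2.2) was in the range of olfactory receptor probe sets. Cd79b (44.2 and 91.1) lay above that range, with more signal on the GW9662 array, but under the minimum mean signal of 100. The part of these cell types in the lower signals of Xbp1, Herpud1 and Asns was not tested.

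**Figure D4:**
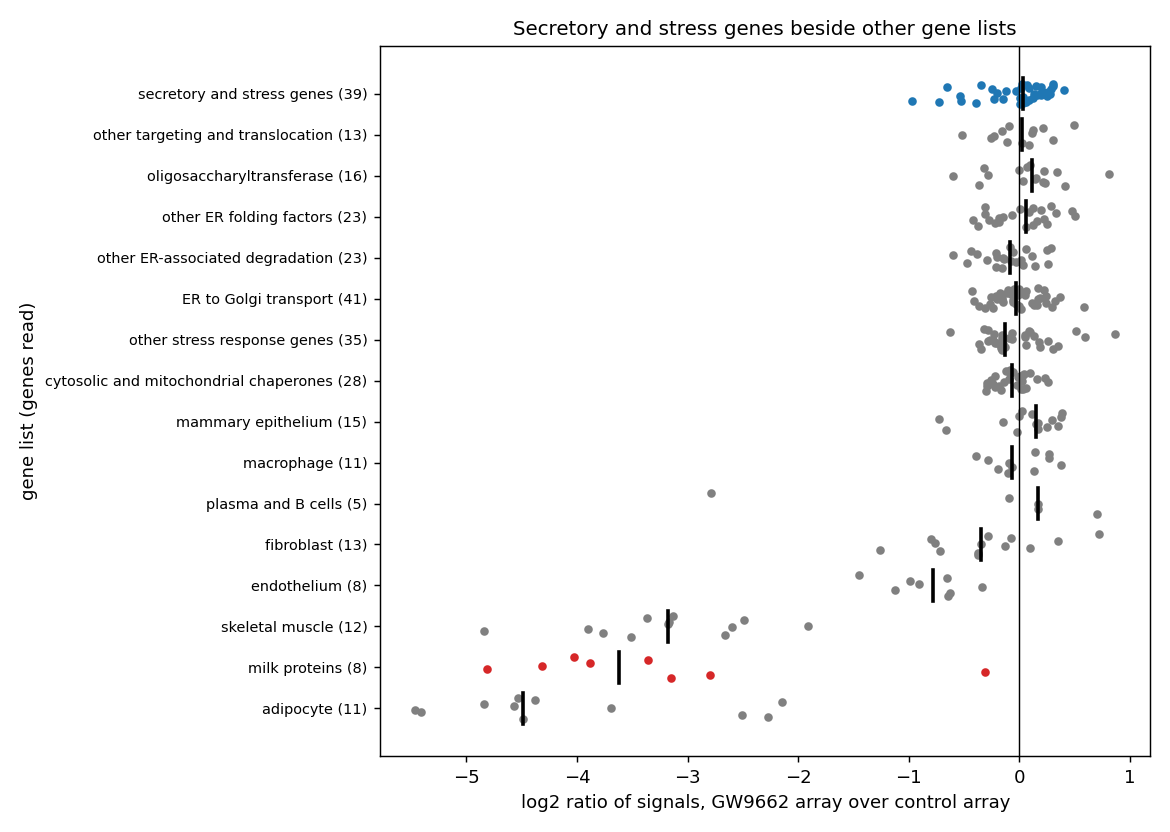
Log2 ratio of the GW9662 signal over the control signal (x axis) for each gene with a mean signal of at least 100, by gene list (y axis, genes read in brackets), with the median of each list as a black bar. The secretory and stress genes (blue) and the other pathway lists center near 0, whereas the adipocyte, milk protein (red) and skeletal muscle lists lay far lower, with medians of -4.48, -3.62 and -3.17.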

How the data were processed

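Expression was measured with 1 Affymetrix mouse genome array per diet, each from RNA pooled from 5 mice. Per the study's methods, biotin-labelled cRNA was hybridized and the scans were processed in Affymetrix GeneChip Operating Software. For 22690 probe sets the authors deposited a signal intensity on a linear scale. How probes were summarized or arrays scaled was not given in the sources used here. Both arrays had a 2% trimmed mean of 500.2. Signals were used as deposited, and 3 control signals of 0 were read as 0.1 for log2. The number of arrays limits the precision of every value.

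Gene names came from an old platform annotation, with symbols updated by gene identifier from RefSeq (GRCm38.p6). A single gene was named for 20380, several for 691, none here for 1555, and 64 were controls. For each of 12393 genes the brightest probe set, by the mean of both arrays, was used. Medians used genes with a mean signal of at least 100, and folds were counted at 1.5, 2 and 3 among genes reaching 300 on at least 1 array. The 300 and 3-fold thresholds follow the methods. With a dimmer signal below 100, a fold was given as a bound against 100. All 43 listed genes were named, with other probe sets shown mainly where ratios differed. Of each other list, the 2 with the highest signals and up to 3 with the largest ratios, among those reaching 300, were to be named. Markers of fat, muscle, fibroblasts, macrophages and endothelium are given as lists, with examples for fat and muscle, and Spint1 is only counted. Btn1a1, Csn1s2a and Glycam1 are drawn only, and Ighm, Cd79a, Cd79b, Pou2af1, Prdm1, Srp68, Srprb and Srpr were named in addition, after their values were seen, as were the genes picked for the plot by probe set. Genes and lists were chosen with earlier results of these data known. Counting was checked on simulated data. Alternatives covered centring, quantile normalization, the choice of probe set and the signal minimum. Protein sequences were not analysed here. Python 3.11.15, numpy 2.4.6 and pandas 2.3.3 were used.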

Additional observations from a re-analysis of the deposited data

How the results depend on the processing

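With 1 array per diet no replicate could be left out, and no paired analysis was possible because each diet had 1 pooled sample. The median log2 ratio of the secretory and stress genes ranged from 0.01 to 0.08 over the main setting and 7 others. A median was taken as moved when it differed by more than the SD between probe sets of a gene divided by the square root of the number of genes, and a count when it differed by over 1.5 times. On that scale 130 medians and 48 counts stayed, and 10 medians and 2 counts moved. With the median over the probe sets of a gene, Ssr4 passed 1.5-fold, which gave 1 gene at least 1.5-fold higher in place of 0, and the further targeting and translocation list had a median of -0.10. With only probe sets that carry no suffix letter, 30 genes were read and 17 were higher, the lectin chaperones (1 gene) stood at -0.38, the ATF4 and CHOP targets (1 gene) at -0.97, and further ER folding factors at -0.10. With a minimum mean signal of 300 the ATF4 and CHOP targets were Asns alone, at -0.97. The milk protein median was -3.94 with the median over probe sets, -4.32 with no suffix letter (3 genes), -3.03 with signals below 100 set to 100, and -3.36 with no minimum and with a minimum of 300. Among single genes, 5 values moved, each with no suffix letter. Xbp1 then stood at -0.28, Hyou1 at -0.34, Canx at -0.38, Sec61a1 at -0.27 and Ssr4 at 0.96. The Hyou1 value came from a probe set under the minimum mean signal of 100 (69.6 and 54.8), so its direction was not read. The signals of Ern1 and Chac1 were too low to read a direction.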

Other observations

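Chaperones of the cytosol and mitochondria, which fold proteins that do not enter the ER, were also close to level. Of 28 genes read, 17 were lower and 11 higher on the GW9662 array, and none differed by 1.5-fold (median log2 ratio -0.07). Hspa8, the constitutive cytosolic Hsp70, had signals of 12422 and 11736 (control, then GW9662), and the heat-inducible Hspa1b had 5675 and 6790.1. The lowest ratios were those of Hspa14 (874 and 709), the mitochondrial Hsp70 Hspa9 (2338 and 1906) and the immunophilin Fkbp4 (1168 and 954).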
